A study of Homo sapiens with 11 samples.

Results

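The zinc finger genes of human chromosome 19 were taken as the protein-coding genes on that chromosome whose symbol is ZNF followed by a number, with or without a final letter. There were 246 of them among 19974 protein-coding genes on chromosomes 1 to 22 and X, beside 1205 other protein-coding genes on chromosome 19 and 263 ZNF genes on other chromosomes. By position, 50 lay in 19p13, 33 in 19p12 and 163 in 19q12-q13. Each gene was given a window of its body and 10 kb on either side. Gene positions, here and throughout, are those of RefSeq on GRCh38.p14 (hg38). The genes had a median length of 23.2 kb, and the shortest, ZNF580, and the longest, ZNF536, spanned 2469 and 487995 bp.

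CTCF was mapped by CUT&RUN, in which an antibody directs a nuclease to a bound protein so that the DNA around it is cut free and sequenced. All cells were HCT116 p53-/-, a human colorectal cancer line without the tumour suppressor p53. The ORC2 deletion cells were a single CRISPR/Cas9 clone of that line, the rescue cells were clones of it that carried ORC2 on a plasmid, and the WT cells were the parental line with ORC2 intact. ORC2 is a subunit of the origin recognition complex, which marks replication origins. CTCF had 2 libraries in ORC2 deletion, 2 in rescue and 2 in WT cells, and IgG, the background antibody, had 2, 1 and 2 libraries in the same order. The design asked which features of chromatin depend on ORC2.

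Most ZNF genes of chromosome 19 belong to the KRAB family. Their proteins bind DNA through arrays of C2H2 zinc fingers and, through the KRAB domain, recruit the corepressor TRIM28 and the histone methyltransferase SETDB1, which places H3K9me3. Many of them silence families of retrotransposons, and the genes stand in tandem clusters that are themselves covered by H3K9me3 in many cell types. CTCF is a zinc finger protein too, and it sets the ends of chromatin loops together with cohesin.

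The deposited data gave 1 list of CTCF peak summits per genotype, with a −log10 q from the peak caller as the strength of each summit. The lists held 31112 summits in ORC2 deletion, 20810 in rescue and 19044 in WT cells, of which 1217, 852 and 809 lay on chromosome 19. The IgG lists held 34, 33 and 17 summits in ORC2 deletion, rescue and WT cells, with 0 on chromosome 19. Each CTCF list names no replicate and was taken as the pool of its libraries, while the rescue IgG list is that of its 1 library, so no value below has a spread between replicates, and no test between genotypes was possible. Library depth is unknown. The 95% intervals given below cover counting error only. Summit lists hold no expression values, so neither the cell line's markers nor the loss of ORC2 could be checked in them.

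Promoters from RefSeq give the DNA around ZNF gene starts. A promoter was 300 bases, 250 before and 50 after a start, and 216 of the 246 genes had 268 of them. A summit of any list lay in 14 of the 268 (5.22%), against 7.99% of 22132 promoters of all protein-coding genes. The core consensus of the CTCF motif was then searched on both strands. It has 12 positions, 4 of which allow a pair of bases. The sites below are shown because each holds the best match in a promoter with a summit. They are the promoters with at most 2 mismatches, then the one whose match lay nearest to a summit, then the single promoter in 19p12 with a summit. Capitals mark the 12 matched bases, and each sequence runs 5′ to 3′ on the strand given in the next paragraph.
ZNF607: ttcttagggCCAGTAGGAGGCgagtctgag
ZNF555: cgtcactcaCCGGCAGGGGGTgggccctag
ZNF551: cctccttctCCCCTAGAGGCCgaagtcgcc
ZNF444: aggcggtccCCAGGCGAGGGCcaattggca
ZNF554: aaccccacaACACCCGGGGACtccagcgaa
ZNF91: gggcggcttCCGGGATGTGGCtgggccttt

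The ZNF607 site lay at chr19:37719838-37719867 on the + strand, had 1 mismatch and was 41 bp from a summit of the deletion list. The ZNF555 site, at chr19:2841232-2841261 (+), had 2 mismatches and lay 164 bp from its summit, which was in the deletion list. The ZNF551 site, at chr19:57681756-57681785 (+), had 2 mismatches, 35 bp from a deletion summit and 10 bp from a WT summit. The ZNF444 site, at chr19:56141109-56141138 (+), had 2 mismatches and lay 71 bp from a WT summit. The ZNF554 site, at chr19:2819676-2819705 (+), had 3 mismatches but lay 2 bp from the deletion summit, 2 bp from the rescue summit and 41 bp from the WT summit. The ZNF91 site, at chr19:23395472-23395501 (−), had 3 mismatches and lay 61 bp from a WT summit.

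Matches to the motif were counted in ZNF promoters and in all others. A match with at most 1 mismatch stood in 19 of 268 ZNF promoters (7.09%, 95% interval 4.59 to 10.8%), against 5.26% of all coding promoters. With at most 2 mismatches the share was 26.1% (21.2 to 31.7%) at ZNF genes, below the 35.5% of all coding promoters. Among promoters with a summit, a match with at most 2 mismatches stood in 4 of 14 at ZNF genes (28.6%, 11.7 to 54.6%) and in 52.0% of 1768 at coding genes in general. The GC content of the ZNF promoters had a median of 60%, against 62.3% over all coding promoters. A match describes the letters of these windows and does not show that CTCF bound there.

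CTCF summits were sparse at the ZNF genes of chromosome 19 in every genotype. Their windows together covered 10.4 Mb and held 74 summits in ORC2 deletion, 31 in rescue and 39 in WT cells. That is 7.15 summits per Mb (5.61 to 8.97) in deletion, 2.99 (2.03 to 4.25) in rescue and 3.77 (2.68 to 5.15) in WT cells. The windows of all protein-coding genes held 14.4, 9.63 and 8.79 summits per Mb in the same lists. Other protein-coding genes on chromosome 19 held 29.9, 21.7 and 20.3, so the ZNF genes stood below their own chromosome by more than the counting error in all 3 lists. ZNF genes on other chromosomes held 13.2, 7.76 and 8.95 summits per Mb. Longer genes did not hold more summits, with Spearman correlations of −0.19, −0.11 and −0.06 across the 246 genes in the deletion, rescue and WT lists. Neighbouring genes share windows, so these correlations are a description.

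**Figure D1:**
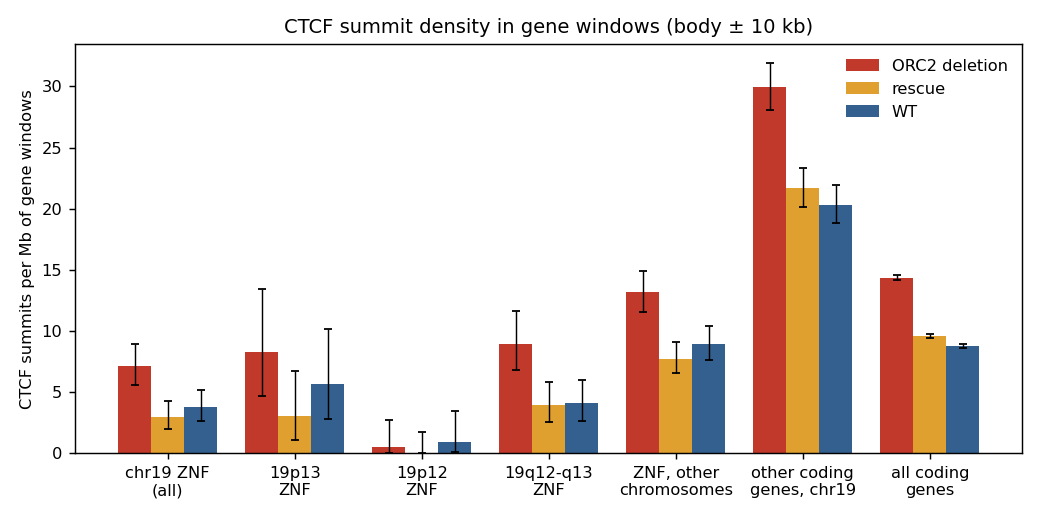
CTCF summits per Mb of gene windows (vertical axis) for chromosome 19 ZNF genes, their 3 clusters and 3 other gene sets, with bars for ORC2 deletion, rescue and WT and 95% Poisson intervals. The 19p12 bars stay below 1 per Mb, while other coding genes of chromosome 19 reach 29.9 in the deletion list.

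Most ZNF genes had no CTCF summit in any genotype. This held for 172 of 246 (69.9%, 63.9 to 75.3%), against 32.9% of all protein-coding genes, 28.5% of other coding genes on chromosome 19 and 44.5% of ZNF genes on other chromosomes. A summit lay in the window of 65 ZNF genes in deletion (26.4%), 24 in rescue (9.76%) and 38 in WT cells (15.4%). Over all protein-coding genes the shares were 63.7%, 52.0% and 50.4%. Among genes without a summit were ZNF350, which binds BRCA1, ZNF382, a KRAB repressor silenced in several tumours, and ZNF175, a repressor of the HIV promoter. ZNF568, whose mouse counterpart silences a placental promoter of Igf2, and ZNF490 had none either.

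The emptiest cluster was 19p12. Of its 33 genes 30 had no summit in any list, and its 2.07 Mb of windows held 1 summit in deletion, 0 in rescue and 2 in WT cells. The densities were 0.484 per Mb in deletion and 0.968 in WT cells, and the count of 0 in rescue cells had an upper 95% limit of 1.79 per Mb. The 1 deletion summit lay inside ZNF93, a KRAB repressor of L1 retrotransposons, at 19930676 with a −log10 q of 6.49, and was in the up list described below. The 2 WT summits had low values. ZNF91, a KRAB repressor of SVA and L1 elements, had one at 23395425, 46 bp inside the gene from its start, with a −log10 q of 2.28. ZNF431 had the other at 21203129, outside its body by 7076 bp, with 2.23. In and beside 19p12, 3 stretches held no CTCF summit of any genotype, within the gene windows or between them. The stretch from 21203129 to 23283968 (2081 kb) held 17 ZNF genes, ZNF708 to ZNF724, and the stretch from 19930676 to 21203129 (1272 kb) held 10, ZNF682 to ZNF431. The longest, 23996718 to 27775151 (3778 kb), held ZNF254 and spans the centromere.

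The other clusters held more. In 19p13 the 50 genes had 16 summits in deletion, 6 in rescue and 11 in WT cells, or 8.25, 3.10 and 5.67 per Mb, and 32 of the genes had none. In 19q12-q13 the 163 genes had 57, 25 and 26 summits, or 8.96, 3.93 and 4.09 per Mb, and 110 had none. Within 19q the summits were uneven among runs of genes separated by at least 1 Mb. The run nearest the end of the arm, from ZNF628 to ZNF446, held 59 genes with 24 summits in deletion, 10 in rescue and 13 in WT cells. The run from ZNF175 to ZNF331 held 39 genes over a window length close to that, 1.58 against 1.64 Mb, with 6 summits in deletion, 0 in rescue and 1 in WT cells. The run from ZNF565 to ZNF573 held 26 genes with 5, 2 and 1 summits, and that from ZNF575 to ZNF296 held 24 genes with 6, 1 and 2.

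More summits stood at the ZNF genes in ORC2 deletion than in WT cells, as they did in the lists as a whole. The ratio of deletion to WT summits was 1.90 (1.27 to 2.87) at the ZNF genes, against 1.63 over all chromosomes, 1.47 at other coding genes of chromosome 19 and 1.47 at ZNF genes elsewhere. The ratio of rescue to WT summits was 0.795 (0.480 to 1.31), against 1.09 over all chromosomes. Both intervals hold the ratio of the whole lists. When each list was cut to the length of the shortest by its own values, both ratios over all chromosomes were 1 by the cut itself. At the ZNF genes they were then 0.974 (0.607 to 1.56) for deletion over WT and 0.641 (0.372 to 1.09) for rescue over WT. The excess in deletion was thus not seen at equal list lengths, a setting that removes it from the lists as a whole. With only summits of −log10 q of at least 5 the deletion to WT ratio was 2.43 (1.44 to 4.25), against 1.90 over all chromosomes, and with at least 10 it was 3.43 (1.43 to 9.42), against 2.76. By cluster the deletion to WT ratio was 1.45 (0.634 to 3.47) in 19p13 and 2.19 (1.36 to 3.63) in 19q12-q13. Both intervals hold the 1.63 of all chromosomes, and 19p12 had too few summits for a ratio.

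Gene by gene, deletion summits were in excess of WT summits more often than the reverse. Deletion summits outnumbered WT summits at 46 of 246 ZNF genes (18.7%, against a background of 37.6% of all protein-coding genes). They were fewer at 11 (4.47%, background 4.27%). Rescue summits outnumbered WT summits at 7 ZNF genes (2.85%, background 18.1%) and were fewer at 20 (8.13%, background 13%). Against the background, genes with more deletion or more rescue summits were less frequent among ZNF genes, most of which had no summit at all. Genes with fewer deletion summits had about the background share.

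Summits of the 3 lists within 100 bp of each other were joined, which gave 100 sites at the ZNF genes and 43812 in all. Of the 100 sites 48 held a deletion summit only, 8 a rescue summit only and 16 a WT summit only. Another 16 held all 3, 5 held deletion and rescue, 5 deletion and WT, and 2 rescue and WT. Of the sites 79 were in reach of 1 ZNF gene and 21 of 2 or more, and 36 were also within 10 kb of a protein-coding gene that is not among the 246. Over all sites, 32.8% were of the deletion list only and 20% of all 3 lists. Joining within 500 bp gave 91 sites at the ZNF genes, 20 of them with all 3 lists (22%, against 40.6% over all chromosomes) and 42 of the deletion list only (46.2%, against 27.3%).

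**Figure D2:**
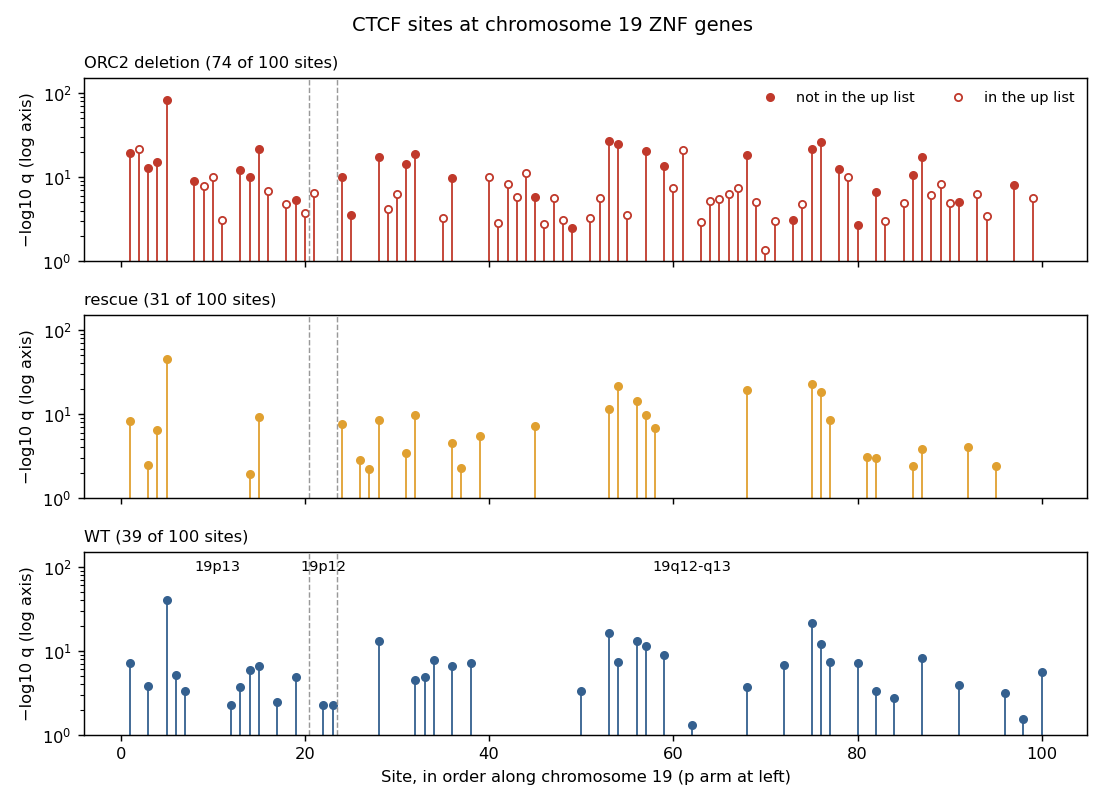
The −log10 q of each CTCF summit (vertical, log scale) at chromosome 19 ZNF genes in order along the chromosome, with panels for ORC2 deletion, rescue and WT. Open circles are summits of the authors' up list, dashed lines part 19p13, 19p12 and 19q12-q13, and the 19p12 stretch holds 1 summit in deletion, 0 in rescue and 2 in WT cells.

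Sites present in all 3 genotypes were stronger than those of 1 genotype. The 16 such sites had a median −log10 q of 19 (6.66 to 84.0) in deletion, 9.46 (1.95 to 45.4) in rescue and 7.29 (3.29 to 39.8) in WT cells. The deletion value was above the WT value in 15 of 16 and above the rescue value in 14 of 16. These values are not scaled between lists, and the medians of the whole lists were 8.06, 6.58 and 6.18 in deletion, rescue and WT cells. How often the deletion value was the higher among all 8778 sites with 3 lists was not counted. Sites of a single list had medians of 5.58 for deletion only, 2.95 for rescue only and 3.23 for WT only.

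The strongest site stood 6073 bp upstream of ZNF77, with summits at 2951096, 2951082 and 2950992 and −log10 q of 84.0 in deletion, 45.4 in rescue and 39.8 in WT cells. The deletion summit ranked 87 of its list. A second ZNF77 site, 119 bp upstream of the start, had 15.4 in deletion and 6.38 in rescue cells, and no WT summit. ZNF581 had 3 summits in each list. Its site at 55632461 had 21.4 in deletion, 23 in rescue and 21.5 in WT cells, so the 3 values lay close together, and its site at 55639318 had 26.1, 18.3 and 11.9. At the start of ZNF180 the values were 27.3 in deletion, 11.6 in rescue and 16.4 in WT cells, 60 bp inside the gene. A site 3011 bp outside ZNF114 had 20.5, 9.77 and 11.5. A second ZNF114 site, 9865 bp outside the gene, had 14.4 in rescue and 12.9 in WT cells, with the nearest deletion summit 150 bp away, beyond the 100 bp that count as one site.

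Other sites lay at genes with roles outside transposon silencing. ZNF541, a germ-cell protein of meiotic chromatin in the mouse, had 24.9 in deletion, 21.8 in rescue and 7.42 in WT cells at a site 4997 bp outside its body. ZNF536, a brain-expressed repressor of neuronal differentiation, had the most summits over all lists, ahead of ZNF581 and ZNF114, with 5 in deletion, 4 in rescue and 1 in WT cells. Its site at 30666642, inside the gene, had 17.5 in deletion, 8.39 in rescue and 13 in WT cells, and a site 3104 bp upstream had 10.1 in deletion and 7.56 in rescue cells, with no WT summit nearer than 255535 bp. ZNF444, a SCAN-domain protein first described in endothelial cells, had 6.66 in deletion, 2.99 in rescue and 3.29 in WT cells upstream of its start. The promoter sites of ZNF554 and ZNF551 had 19.4, 8.35 and 7.17 at ZNF554 and 17.5, 3.80 and 8.24 at ZNF551, in deletion, rescue and WT cells.

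Matches of WT summits at the ZNF genes in the other lists were below the share of all WT summits, at 100 bp within counting error and at 500 bp beyond it. A deletion summit lay within 100 bp of 19 of 39 (48.7%, 33.9 to 63.8%, background 60.6%), and a rescue summit of 18 of 39 (46.2%, 31.6 to 61.4%, background 51.1%). Both intervals hold the background share. Within 500 bp the counts were 28 of 39 for deletion (71.8%, 56.2 to 83.5%, against 89.5% of all WT summits) and 21 of 39 for rescue (53.8%, 38.6 to 68.4%, against 76.2%). In the other direction, 19 of 74 deletion summits had a WT summit within 100 bp (25.7%, against 37.1% of all deletion summits), and 18 of 31 rescue summits did (58.1%, 40.8 to 73.6%, against 46.8%). Within 500 bp these were 26 of 74 deletion summits (35.1%, 25.2 to 46.5%, against 54.8%) and 21 of 31 rescue summits (67.7%, 50.1 to 81.4%, against 69.8%).

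The authors' deposited up list marks regions gained in ORC2 deletion cells. As deposited, every one of its 9603 regions holds a deletion summit and none holds a summit of rescue or WT cells. Each of the 364 down regions holds summits of rescue and of WT cells, with none of the deletion list. Loss of the up sites in rescue cells is therefore part of the list and not a separate result. At the ZNF genes 42 of 100 sites were in the up list (42.0%, 32.8 to 51.8%, background 21.9%), and these were 42 of the 74 deletion summits (56.8%, 45.4 to 67.4%, background 30.9%). At other coding genes on chromosome 19 the share was 24.4% of 982 deletion summits, and at ZNF genes elsewhere 32.1% of 243. Per gene the order was the other way: 47 of 246 ZNF genes had an up summit (19.1%, 14.7 to 24.5%, background 30.5%). The up sites were thus a large share of few summits, and most ZNF genes had none. By cluster they were 7 of 20 sites in 19p13, 1 of 3 in 19p12 and 34 of 77 in 19q12-q13.

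The up share falls with the strength of a deletion summit in the whole list, so those at ZNF genes were also set beside summits of like value, in 4 classes of equal size. In the weakest class, −log10 q of 1.31 to 4.77, 15 of 19 summits at ZNF genes were up (78.9%, 56.7 to 91.5%), against 70.3% of all. From 4.77 to 8.06 it was 19 of 23 (82.6%, 62.9 to 93.0%), against 38.9%. From 8.06 to 13.6 it was 6 of 15 (40.0%, 19.8 to 64.3%), against 12.5%. In the strongest class it was 2 of 17 (11.8%, 3.29 to 34.3%), against 1.81%. The interval lay above the value of all summits in the upper 3 classes and held it in the weakest one.

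**Figure D3:**
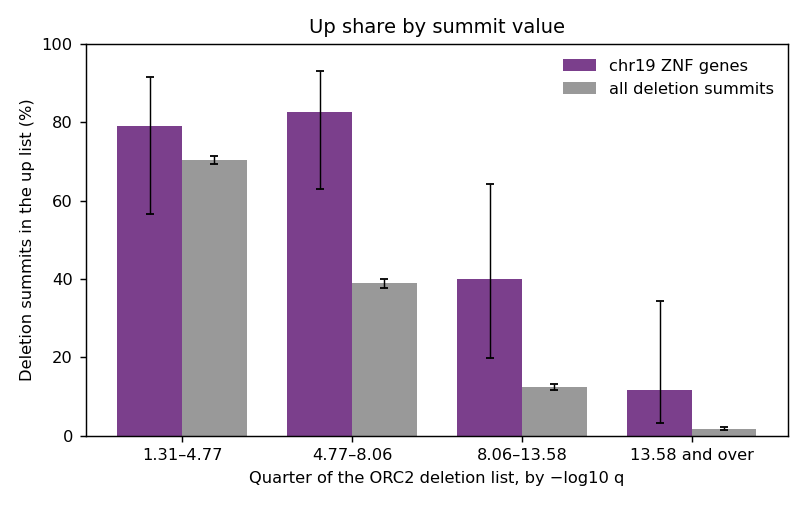
Share of deletion summits in the authors' up list (%) in 4 classes of equal size by −log10 q, for chromosome 19 ZNF genes and for all deletion summits, with 95% Wilson intervals. The share is lower in the upper 2 classes than in the lower 2 for both, and at the ZNF genes the share is 82.6% in the 2nd class against 38.9% of all.

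Up summits at the ZNF genes also stood farther from other CTCF summits. The median distance from an up summit to the nearest rescue summit was 124 kb at the ZNF genes, against 29.3 kb over all up summits, and to the nearest WT summit 83.6 kb against 33.4 kb. Both the nearest WT and the nearest rescue summit were over 100 kb away for 19 of 42 (45.2%, 31.2 to 60.1%), against 13.7% of all up summits. An up region needs the absence of WT and rescue summits, and the density of these was low at the ZNF genes, as given above. The part of this low density in the up share was not tested.

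The strongest up summits stood close to gene starts. ZNF555, a KRAB protein that binds a beta-satellite enhancer on chromosome 4, had one at 2841411, 64 bp upstream of the start, with a −log10 q of 21.6 in deletion cells, and the nearest WT summit was 21679 bp away. ZNF808, which silences MER11 retroviral elements in pancreas development, had one at 52527402, 266 bp upstream, with 20.8, and the nearest rescue and WT summits were 289611 and 84846 bp away. ZNF607 had one 133 bp upstream at 37719894, with 11.1, beside the matched motif printed above. These 3 genes had no summit in rescue or WT cells within 10 kb.

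The next by value were farther from starts. ZNF566 had an up summit 3823 bp upstream of its start with a −log10 q of 10.2, and ZNF121 had one 2481 bp upstream with 9.92. ZNF787 had one at 56105226, inside the gene, with 9.96, and near its start 2.67 in deletion, 3.10 in rescue and 7.12 in WT cells, the rescue summit 139 bp from the deletion summit. ZNF420, a KRAB protein that holds p53 in check, had a pair of up summits inside the gene, at 37111935 with 2.84 and at 37114082 with 8.22, and no WT or rescue summit within 784619 bp. ZNF587B had one 112 bp inside the gene from its start, with 8.21. The 8 up summits in the upper part of the deletion list, above its median of 8.06, belonged to these 8 genes, from 8.21 to 21.6.

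Most other up summits were weaker. ZNF331, an imprinted gene, had one inside the gene at 53511960 with 7.39. ZNF473, which takes part in histone mRNA processing, had one inside the gene at 50046930 with 7.41. ZNF274, a KRAB protein that binds the 3′ ends of ZNF genes and recruits SETDB1 there, had one 1093 bp upstream of its start at 58181968 with 4.93. ZNF845 and ZNF525, which are neighbours, shared up summits at 53360815 and 53365759 with 5.57 and 6.29, the second 54 bp inside ZNF525 from its start. ZNF865 had 4 deletion summits, 0 in rescue and 1 in WT cells, and 3 of the 4 were up, with 1.37, 2.98 and 4.76. The 4th, at 55606343 with 3.05, was not up, and the WT summit, at 55606160 with 6.76, lay 183 bp from it. ZNF524, next to ZNF865, shared 3 of these deletion summits and the WT summit. The run from ZNF175 to ZNF331 had 7 sites of which 6 were up, and the ZNF628 to ZNF446 run had 33 of which 13 were up.

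Few sites at the ZNF genes were in the down list. It held 1 of 100 sites (1%, background 0.833%) and 1 of 39 WT summits (2.56%, background 1.92%). In all, 2 genes had that summit in reach (0.813%, background 1.72%). These shares rest on 1 WT summit, which lies inside both ZNF146 and ZNF565, since the gene bodies overlap. ZNF146 encodes a protein made almost wholly of zinc fingers, without a KRAB domain. No deletion summit lay within 43909 bp of it. The rescue summit stood at 36214948 with a −log10 q of 5.41, and the WT summit at 36214778 with 7.25, 170 bp apart. Genes with a WT summit and neither a deletion nor a rescue summit were led by ZNF557 with 5.08, ZNF805 with 2.75 and ZNF846 with 2.28, and none of these summits was in the down list. ZNF507 had more WT than deletion summits, with 2 in deletion, 2 in rescue and 3 in WT cells, and its 2 WT-only summits, at 32373946 and 32377393, had 4.82 and 7.73.

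Summits at the ZNF genes were gathered at gene starts. Within 1 kb of a listed start stood 28 of 74 deletion summits (37.8%, 27.6 to 49.2%, against 13.3% at all protein-coding genes), 9 of 31 rescue summits (29%, against 11.3%) and 11 of 39 WT summits (28.2%, against 13.8%). Of the 42 up summits 18 stood there (42.9%, against 16.7%). At other coding genes on chromosome 19, 178 of 982 deletion, 114 of 711 rescue and 113 of 667 WT summits stood within 1 kb of a start. The bases within 1 kb of a start made up 4.49% of the ZNF windows, 6.33% of those of other coding genes on chromosome 19 and 2.45% of all gene windows. Near starts the ZNF genes had 60.2 summits per Mb in deletion (40.0 to 87.0), 19.4 in rescue (8.85 to 36.7) and 23.7 in WT cells (11.8 to 42.3), against 77.9, 44.5 and 49.4 over all protein-coding genes. The interval held the value of all genes in deletion and lay below it in rescue and WT cells. In the rest of the windows they had 4.65, 2.22 and 2.83, against 12.8, 8.75 and 7.77, below all genes by more than the counting error in each list. Around the starts, 1 to 10 kb away, summits stood upstream more often than downstream, with 20 and 5 in deletion, 8 and 2 in rescue and 11 and 2 in WT cells. The side was that of the midpoint of the joined site. The sides were not counted at other genes, so the upstream excess is not shown to be particular to ZNF genes.

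**Figure D4:**
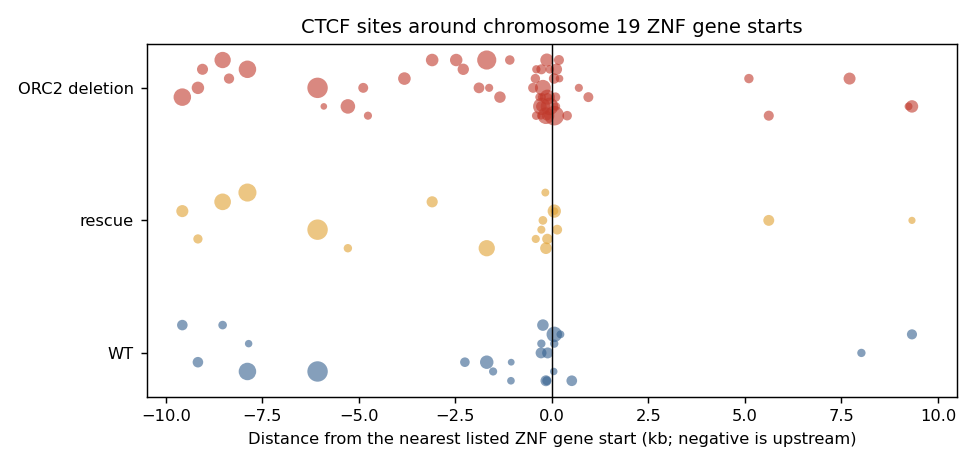
Distance of CTCF sites from the nearest listed chromosome 19 ZNF gene start (kb, negative is upstream) within 10 kb, in rows for ORC2 deletion, rescue and WT. Each summit is drawn at the midpoint of its joined site, so summits of a shared site stand at the same distance in each row. Dot size grows with −log10 q up to 30, the vertical scatter only separates dots, and the dots gather within 1 kb of the start, with 28 summits in deletion, 9 in rescue and 11 in WT cells.

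By place, the up list took 18 of the 37 sites within 1 kb of a start (48.6%, 33.4 to 64.1%), 11 of 23 elsewhere in gene bodies (47.8%, 29.2 to 67.0%) and 13 of 40 in the flanks (32.5%, 20.1 to 48.0%), and the 3 intervals overlap. The sites were spread over many genes. With each site assigned to the gene that holds it or the nearest one, 68 of the 246 genes had a site, 49 of them a single one, and 40 had an up site. At the 10 kb limit of the windows, the deletion list had 2 summits at 9 to 10 kb outside a gene (9.90 to 21.5) and 4 at 10 to 11 kb (2.72 to 18.9), the rescue list 3 (4.55 to 14.4) and 2 (3.94 to 6.84), and the WT list 4 (5.60 to 12.9) and 1 (8.24).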

How the data were processed

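CTCF and IgG CUT&RUN was done in 11 libraries of HCT116 p53-/- cells. FastQC 0.11.5, Bowtie2 2.2.9, SAMtools 1.12 and MACS2 (no version) were used with hg38, per the submitters' processing notes. How peaks were set, duplicates handled and IgG libraries used is not stated in the sources read here. The authors deposited 1 summit list per group with values as −log10 q, the lowest near the −log10 of 0.05, and region lists (up, down) with no score or other value. No column was left unused.

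Summits on chromosomes 1 to 22 and X were counted in gene bodies with 10 kb on either side, using RefSeq genes (GRCh38.p14), and joined or matched within 100 bp. Cytogenetic bands followed the usual hg38 limits, which are not part of a deposited file. Shares have 95% Wilson intervals, densities Poisson intervals and ratios exact conditional intervals. Matching was tested on simulated data. The authors' q served to describe, rank or filter summits. Values of different lists were set side by side, and the same minimum was put on all lists, without scaling between lists.

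The genes and lists were chosen with earlier results of these data known. Named genes were the 8 with the strongest up summits, those with a down region, the 6 with the largest excess of deletion summits, the 5 with the strongest WT summits, the 3 strongest with WT summits only, a panel of 13 with known roles and the 3 with most summits. The other genes in the text (ZNF431, ZNF444, ZNF473, ZNF507, ZNF541, ZNF551, ZNF554, ZNF565 and ZNF580, and the ends of runs) were chosen after their values were seen. Added after seeing the data were the up share of deletion summits, the share of genes without a summit, the WT density and all values without ZNF536. Tools were SciPy 1.17.1, pandas 2.3.3, NumPy 2.4.6 and matplotlib 3.10.9 under Python 3.11.15.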

Additional observations from a re-analysis of the deposited data

How the results depend on the processing

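No paired analysis was possible because the list of a genotype carries no replicate number, and leaving out a replicate was not possible for the same reason. Of 84 values recomputed under other settings, 62 stayed within the 95% interval of the reported value, 21 moved beyond it and 1 turned round. The last was deletion over WT summits, 0.974 (0.607 to 1.56) at equal list lengths, where the ratio over all chromosomes is 1 by the cut. With a minimum −log10 q of 10, 4 of 25 sites (16%) and 4 of 24 deletion summits (16.7%) were up (3.73% and 4.35% over all chromosomes). Deletion over WT summits was then 3.43 (2.76 over all). WT summits with a deletion or a rescue summit were each 5 of 7 (71.4%, 35.9 to 91.8%), genes without a summit 91.9% and WT summits 0.676 per Mb. With a minimum of 5, 45.1% of deletion summits were up (16.6% over all chromosomes), 78.0% of genes had no summit and the WT density was 2.03. With 50 kb windows, 32.1% of sites and 44.2% of deletion summits were up (21.9% and 30.9% over all chromosomes), 45.1% of genes had no summit and the WT density was 5.43. Gene bodies alone left 87.4% of genes without a summit and 2.27 WT summits per Mb, and leaving out summits near other coding genes 77.6% and 2.32. Equal list lengths gave 78.0% of genes without a summit. Matching within 500 bp gave 71.8% of WT summits with a deletion summit. Without the genes of 19q12-q13, rescue over WT was 0.462. Without ZNF536 each value stayed within its interval. The cause of these moves was not tested. The counts are small, with 31 to 74 summits a list, and 7 to 24 at a minimum −log10 q of 10. The depth is unknown, and a longer list may reflect depth as well as genotype, which cannot be told apart here. The deletion cells were a single clone and the WT cells the parental line, so clone and genotype cannot be told apart either.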

Other observations

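A list of 20 genes was looked up, and all were found. It held the corepressor that KRAB zinc finger proteins recruit, enzymes and readers of H3K9 methylation, and other genes such as DNMT1, DAXX and SUMO2. A CTCF summit lay within 10 kb of 12 of them in ORC2 deletion, 13 in rescue and 13 in WT cells, and 6 had none in any list. Of all protein-coding genes, 63.7%, 52.0% and 50.4% had a summit in these lists, and 32.9% had none in any. TRIM28, the KRAB corepressor, which lies on chromosome 19 itself, had 1 summit in each genotype, and so had SETDB1, the methyltransferase it recruits. An up summit lay at 4 of the 20 (20%, against 30.5% of all protein-coding genes), namely ATF7IP, the partner of SETDB1, CBX1 and CBX5, which encode HP1 proteins, and EHMT1, an H3K9 methyltransferase. A down region lay at 0 of them (1.72% of all). CBX1 had the most summits, with 7 in deletion, 4 in rescue and 5 in WT cells.

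A further list, set by name and not by a rule, held 25 zinc finger genes whose symbols are not of the ZNF form. Of these, the 22 found on chromosome 19 were counted. They had a summit at 11 genes in deletion, 6 in rescue and 7 in WT cells, and 11 genes had none. The shares of all protein-coding genes with a summit were 63.7%, 52.0% and 50.4% in the same order, and 32.9% had none. An up summit lay at 6 of the 22 (27.3%, against 30.5% of all protein-coding genes), namely KLF1, ZBTB32, ZFP14, ZFP82, ZSCAN5A and ZSCAN22, and a down region at 0 (1.72% of all). ZSCAN5A had 6 summits in deletion, 5 in rescue and 5 in WT cells. The imprinted PEG3 and ZIM2, and ZIM3, a strong KRAB repressor, had none in any list.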
